A study of Mus musculus with 19 samples.

Results

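The macrophages that reside in liver sinusoids, Kupffer cells, carry lectins and other surface and secreted proteins. Of 33919 gene identifiers in the table, 7 genes for such proteins were followed here: Clec4f, Cd207, Cd209f, Clec1b, Mrc1, Fcna and Folr2. They were matched by mouse symbol, 1 identifier per gene, and all 7 were found. Of these, Clec4f, Cd207, Cd209f, Clec1b and Mrc1 encode proteins with C-type lectin folds and Fcna encodes a ficolin. Folr2 encodes a folate receptor, which is not a lectin, and it was kept as a marker of resident macrophages. RNA was sequenced from Kupffer cells sorted from livers of female C57BL/6 mice in 3 groups. MCD_MoKCs (7 libraries) came from animals kept for 4 weeks on MCD diet, which lacks methionine and choline, and held monocyte-derived Kupffer cells sorted as CLEC2+ TIMD4- cells. MCD_EmKCs (6 libraries) were embryo-derived Kupffer cells from mice on the same diet, sorted as CLEC2+ TIMD4+ cells. Chow_EmKCs (6 libraries) were embryo-derived Kupffer cells of mice fed chow, sorted through the same CLEC2+ TIMD4+ gate. No chow group of monocyte-derived cells was analysed here. Origin was thus assigned by TIMD4 alone, and Clec1b, which encodes the sort marker CLEC2, was selected for at the protein level in every group. The sources used here do not say which libraries came from separate animals or how many were pooled, so p-values measure the spread between libraries, which may be technical.

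C-type lectins bind sugars or protein ligands through a shared fold. Clec4f is the Kupffer cell receptor for galactose and N-acetylgalactosamine and is used as a marker of these cells in mice. Cd207 encodes langerin, a mannose-binding receptor best known from the Birbeck granules of Langerhans cells of the skin, and Cd209f is one of the mouse relatives of DC-SIGN. CLEC2 binds podoplanin, is best known on platelets and signals through the kinase SYK. Mrc1 encodes the mannose receptor, which clears glycoproteins and is shared by macrophages and liver sinusoidal endothelial cells. Ficolin A, the product of Fcna, is secreted, recognises acetylated sugars on microbes and starts the lectin pathway of complement together with the MASP proteases. Folate receptor beta, the product of Folr2, is anchored to the membrane by a lipid tail and takes up folate.

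Clec4f (ENSMUSG00000014542, chr6:83644542-83656187, minus strand, mm10) and Cd207 (ENSMUSG00000034783, chr6:83671215-83677857, minus strand) are direct neighbours, with start sites 21.741 kb apart in the promoter table. Clec1b (ENSMUSG00000030159, chr6:129397297-129409335, plus strand) lies on the same chromosome and its annotated span overlaps Clec9a on the same strand. Fcna (ENSMUSG00000026938, chr2:25624666-25628030, minus strand) is overlapped by the antisense gene Fcnaos. Mrc1 (ENSMUSG00000026712, chr2:14229392-14332057, plus strand) holds the microRNA gene Mir511. Folr2 (ENSMUSG00000032725, chr7:101839988-101857194, minus strand) is overlapped on the other strand by the predicted genes Gm10602 and Gm45319. Cd209f (ENSMUSG00000051906, chr8:4102787-4105835, minus strand) sits between Cd209c and Cd209g in a cluster of near copies.

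The start regions of Clec4f, Cd207 and Fcna are shown because, as described further on, Clec4f and its neighbour Cd207 differed in pattern while Clec4f and Fcna were alike. Each stretch covers 300 bases, most of them upstream of the start site and the rest just downstream, 5′ to 3′ on the gene's strand, from RefSeq on GRCm38.p6. Capitals mark matches on either strand to 6 short motifs, the PU.1 core GAGGAA, the RBPJ core TGGGAA, the nuclear receptor motif AGGTCA, the MAF motif TGCTGA, the AP-1 site TGANTCA and the E-box CACGTG, and no matches overlapped. PU.1, RBPJ, the nuclear receptor LXR alpha and MAF family factors are known regulators of macrophage genes.
Clec4f (chr6:83656067-83656366): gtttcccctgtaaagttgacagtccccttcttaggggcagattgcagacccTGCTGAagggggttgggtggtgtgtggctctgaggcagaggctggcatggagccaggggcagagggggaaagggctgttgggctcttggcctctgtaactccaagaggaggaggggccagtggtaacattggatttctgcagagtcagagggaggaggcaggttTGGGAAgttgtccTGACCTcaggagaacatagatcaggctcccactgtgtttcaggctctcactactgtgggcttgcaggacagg
Cd207 (chr6:83677808-83678107): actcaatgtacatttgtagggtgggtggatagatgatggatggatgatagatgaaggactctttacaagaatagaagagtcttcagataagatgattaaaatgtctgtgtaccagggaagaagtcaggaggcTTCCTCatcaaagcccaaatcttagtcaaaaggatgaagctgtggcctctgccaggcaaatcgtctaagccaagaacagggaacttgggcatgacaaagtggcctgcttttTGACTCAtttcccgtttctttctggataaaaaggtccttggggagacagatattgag
Fcna (chr2:25627925-25628224): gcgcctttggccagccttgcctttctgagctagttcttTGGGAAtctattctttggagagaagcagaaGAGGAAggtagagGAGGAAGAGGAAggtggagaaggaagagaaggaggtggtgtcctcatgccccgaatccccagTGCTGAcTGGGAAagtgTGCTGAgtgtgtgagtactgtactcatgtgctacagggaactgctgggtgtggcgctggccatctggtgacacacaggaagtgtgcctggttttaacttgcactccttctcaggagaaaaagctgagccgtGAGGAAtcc
In Clec4f the RBPJ core began 35 bases and the nuclear receptor motif 22 bases upstream of the start site, and the MAF motif 199 bases upstream. Cd207 held none of these, and had a PU.1 core 118 bases and an AP-1 site 7 bases upstream. Fcna held 4 PU.1 cores, 2 RBPJ cores and 2 MAF motifs, and no nuclear receptor motif. Of 32851 promoter stretches in the table, 28.3% held the PU.1 core, 25.6% the RBPJ core, 16.3% the nuclear receptor motif, 19.5% the MAF motif, 7.81% the AP-1 site and 7.15% the E-box, so single matches of this kind are common. Among the others, Mrc1 had 3 PU.1 cores, Cd209f 1 AP-1 site, Folr2 an AP-1 site and a MAF motif in 1 of its start regions and a MAF motif in the other, and Clec1b no match to the 6 motifs. A link between these motifs and the expression patterns was not tested.

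Total reads ranged from 11642240 to 30983487 per library, and 14643 to 16847 genes had a read. Values are given as normalised reads, that is, reads divided by 1 size factor per library. Timd4, the gene behind the gate, had 258.3 to 743 normalised reads in MCD_MoKCs, 6584 to 8501 in MCD_EmKCs and 8423 to 13558 in Chow_EmKCs, which the sort sets. Mitochondrial genes took 0.244 to 0.729% of reads in MCD_MoKCs, 0.155 to 0.317% in MCD_EmKCs and 0.511 to 1.05% in Chow_EmKCs, and their part in the differences below was not tested. Libraries 1 to 3 of MCD_MoKCs stood apart from libraries 4 to 7, at 0.534 to 0.729% against 0.244 to 0.359%. The numbers in the library names were also divided into those up to 33 and those from 37, with 5 and 2 libraries of MCD_MoKCs, 3 and 3 of MCD_EmKCs, and 3 and 3 of Chow_EmKCs. The labels do not say that a batch changes between these numbers. Results that depend on either grouping are given with and without it.

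The first question was how the MCD diet altered these genes in cells of embryonic origin. In MCD_EmKCs, 3 of the 7 genes fell against Chow_EmKCs (Cd207, Folr2 and Clec4f), none rose, and 4 did not pass the test (Cd209f, Fcna, Mrc1 and Clec1b). The test was limma on log2(value + 1), fitted across 14875 genes and adjusted by Benjamini-Hochberg at 0.05. Of all genes tested, 4.08% were called in either direction and 1.58% were lower in MCD_EmKCs. The median log2 fold change was -0.47 over the 7 genes and -0.04 over all genes tested. The second question was how monocyte-derived and embryo-derived cells differed in the same MCD-fed livers. In MCD_MoKCs, 6 of the 7 genes fell against MCD_EmKCs and 1, Cd207, rose, where 4.9% of all genes tested were lower and 5.64% higher, 10.5% in all. Medians were -1.88 over the 7 genes and 0.02 over all genes. Against Chow_EmKCs, 6 of the 7 were lower in MCD_MoKCs and Clec1b did not pass, where 8.08% of all genes were lower and 16.8% were called in either direction. That comparison differs in both diet and origin and shares its libraries with the other comparisons, so its values are given beside theirs and not as separate support. All 7 genes passed the filter on low values (at least 10 normalised reads in at least 6 libraries). For 6 of them every library passed, while Cd209f passed in 14 of 19 libraries, with 2 of 7 in MCD_MoKCs.

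**Figure D1:**
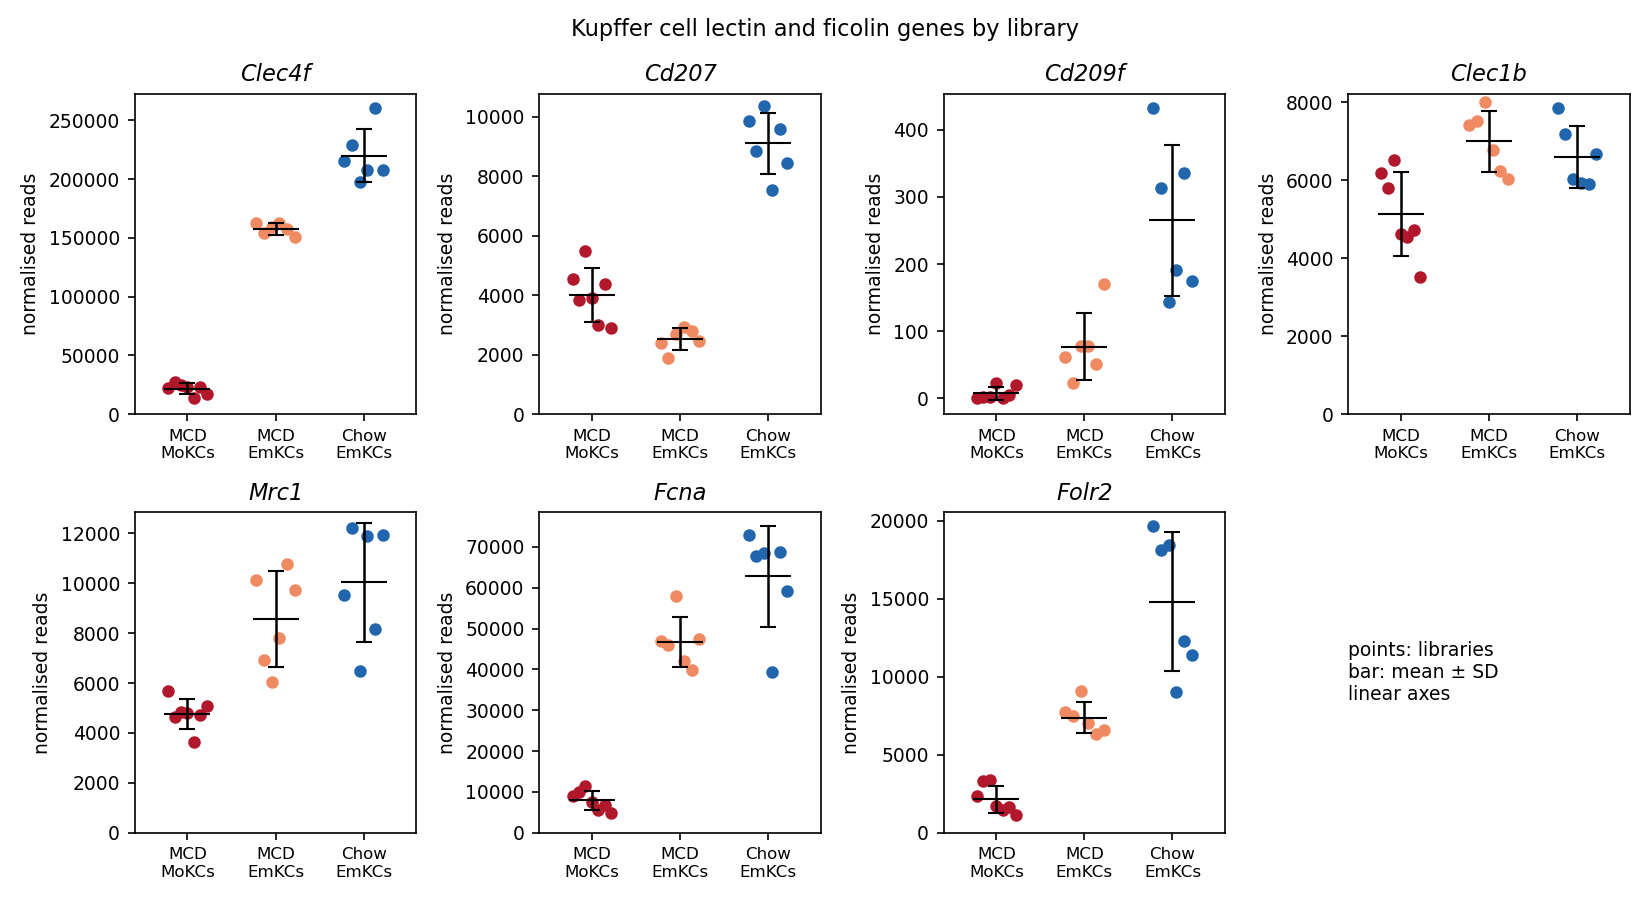
Normalised reads of the 7 genes in each library, on linear axes, for MCD_MoKCs (7 libraries), MCD_EmKCs (6) and Chow_EmKCs (6), where points are libraries and bars are mean ± SD. Clec4f, Fcna and Folr2 were lowest in MCD_MoKCs, intermediate in MCD_EmKCs and highest in Chow_EmKCs on average, whereas Cd207 was lowest in MCD_EmKCs.

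The ranges of the libraries were compared as well. Between MCD_EmKCs and Chow_EmKCs, 2 of the 7 genes (Clec4f and Cd207) had no overlap, both lower in MCD_EmKCs, as did 2.96% of all genes tested in either direction and 1.41% in that direction. Between MCD_MoKCs and MCD_EmKCs, 4 of the 7 (Clec4f, Fcna, Mrc1 and Folr2) had none and all were lower in MCD_MoKCs, against 4.86% of all genes in either direction and 2.25% lower. Between MCD_MoKCs and Chow_EmKCs it was 6 of the 7, all but Clec1b and all lower in MCD_MoKCs, against 7.97% of all genes in either direction and 3.5% lower.

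Clec4f was the most abundant of the 7 genes in every group. It had 13948 to 27160 normalised reads (median 23325) in MCD_MoKCs, 150476 to 162762 (median 158092) in MCD_EmKCs and 197363 to 260533 (median 211824) in Chow_EmKCs. No 2 of the 3 groups overlapped, and MCD_EmKCs libraries lay close together, with a coefficient of variation of 3.02%. In MCD_MoKCs Clec4f stood at 13.9% of the MCD_EmKCs mean, with -2.88 ± 0.12 as log2 fold change and its SE (adjusted p = 3.26e-15, limma). That was still 0.118% of all reads, against 0.832% in MCD_EmKCs and 1.23% in Chow_EmKCs, so transcripts of this Kupffer cell marker were readily counted in all 7 MCD_MoKCs libraries. In bulk RNA, fewer cells with the transcript and less transcript per cell cannot be told apart. The diet difference was smaller: MCD_EmKCs held 71.8% of the Chow_EmKCs mean, with log2 fold change -0.47 ± 0.12 and adjusted p = 0.0269. The diet call was lost when any 1 of 5 libraries was left out (MCD_EmKCs 2, 5 or 6, or Chow_EmKCs 2 or 5), with adjusted p between 0.0508 and 0.0729. Within library numbers up to 33 the value was -0.43 (adjusted p = 0.340) and within those from 37 it was -0.52 (adjusted p = 0.0853), so its size held but not its call.

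Cd207, next to Clec4f on chromosome 6, had a different order of groups. It had 2895 to 5471 normalised reads (median 3897) in MCD_MoKCs, 1899 to 2919 (median 2586) in MCD_EmKCs and 7522 to 10357 (median 9205) in Chow_EmKCs. Every MCD_EmKCs library was below every Chow_EmKCs library, and the highest MCD_EmKCs library overlapped the lowest of MCD_MoKCs. On the diet, Cd207 fell to 27.8% of the chow mean in embryo-derived cells, a log2 fold change of -1.85 ± 0.15 (adjusted p = 6.72e-09). The fall was -2.07 within library numbers up to 33 (adjusted p = 6.28e-05) and -1.64 within those from 37 (adjusted p = 4.01e-04). Among MCD-fed samples Cd207 was higher in MCD_MoKCs, at 158% of the MCD_EmKCs mean, with a log2 fold change of 0.64 ± 0.15 (adjusted p = 0.00424). It was the 1 gene of the 7 that was higher in monocyte-derived cells. That rise was 0.82 in library numbers up to 33 (adjusted p = 0.0216) but 0.38 in those from 37 (adjusted p = 0.434), and 0.48 without MCD_MoKCs libraries 1 to 3 (adjusted p = 0.0808), so its call rests in part on those libraries. Against Chow_EmKCs, MCD_MoKCs were lower, at -1.21 ± 0.15 (adjusted p = 9.46e-07).

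Because langerin is also a marker of Langerhans cells and of some dendritic cells, a list of 7 markers of those cells was read in the same libraries. Of 5 tested, 3 rose (Ccr7, Flt3 and Xcr1) and none fell in MCD_MoKCs against MCD_EmKCs by limma, while edgeR called 1 and DESeq2 2, and their part in the Cd207 difference was not tested. The summed level of the list was 775.8 to 2066 normalised reads in MCD_MoKCs, 205 to 1008 in MCD_EmKCs and 267 to 758 in Chow_EmKCs. Epcam, an adhesion molecule of Langerhans cells, averaged 12.6 in MCD_MoKCs, 22.9 in MCD_EmKCs and 0.165 in Chow_EmKCs, with libraries at 0 in each group. In the diet comparison no gene of the list passed in limma, edgeR or DESeq2, and 0 of 5 had an unadjusted limma p under 0.05. The list's summed level in MCD_EmKCs overlapped that of Chow_EmKCs, and its part in the diet difference of Cd207 was not tested.

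The ratio of Cd207 to Clec4f within a library hardly depends on the library's scaling, and it separated all 3 groups. Cd207 amounted to 14.2 to 21.7% of Clec4f in MCD_MoKCs, 1.23 to 1.79% in MCD_EmKCs and 3.62 to 5.25% in Chow_EmKCs. The mean log2 ratio was 3.53 higher in MCD_MoKCs than in MCD_EmKCs, an 11.5-fold difference (exact two-sided permutation test, p = 5.83e-04, the smallest this design allows; adjusted p = 0.00122 over 21 ratio tests). In MCD_EmKCs it was 1.38 lower than in Chow_EmKCs (difference -1.38, exact permutation p = 0.00216, the smallest possible; adjusted p = 0.00303). The 2 neighbouring genes thus changed by different amounts in both comparisons, in opposite directions between MCD_MoKCs and MCD_EmKCs and in the same direction on the diet. Over the 19 libraries their log2 values had Pearson r = 0.31, a description in which the libraries share group and scaling.

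**Figure D2:**
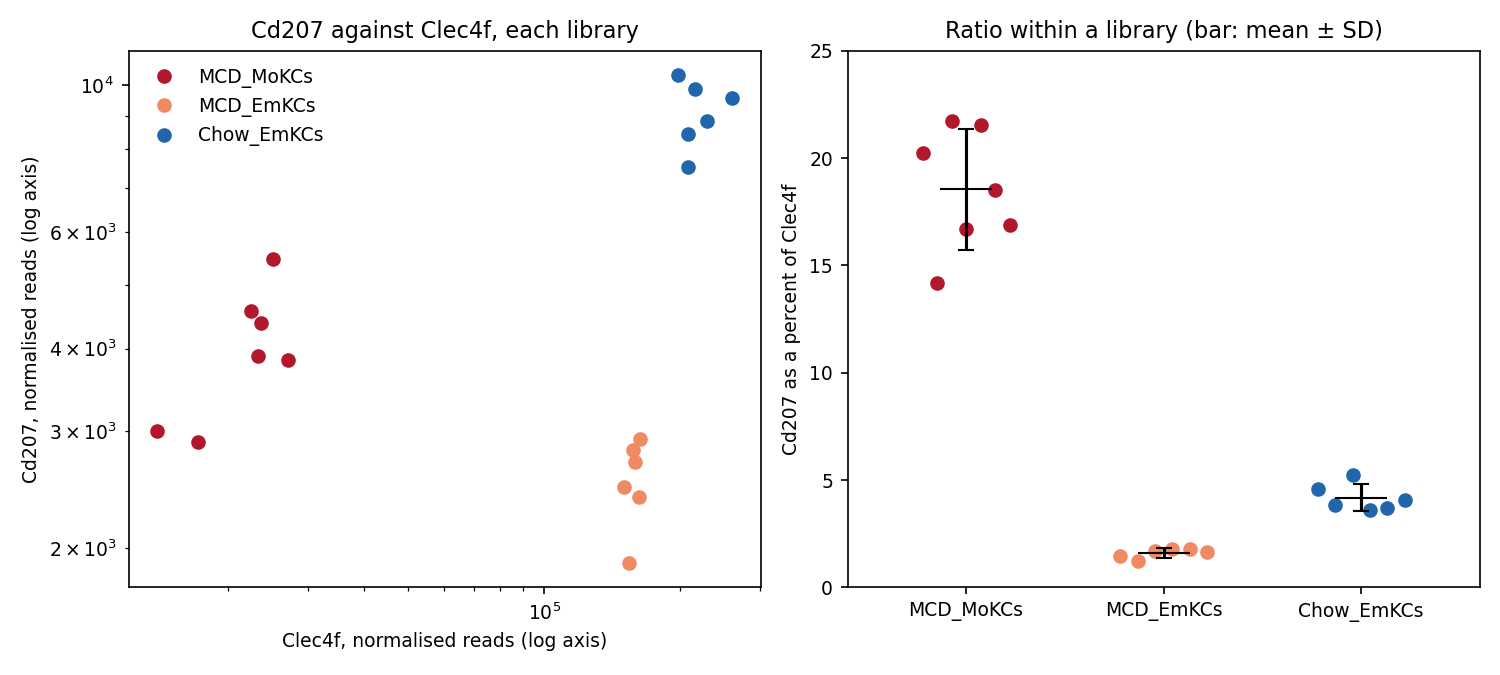
Left, normalised reads of Cd207 against Clec4f in each of the 19 libraries, on log axes. Right, Cd207 as a percent of Clec4f within a library, with mean ± SD for MCD_MoKCs (7 libraries), MCD_EmKCs (6) and Chow_EmKCs (6); the percent was 14.2 to 21.7 in MCD_MoKCs, 1.23 to 1.79 in MCD_EmKCs and 3.62 to 5.25 in Chow_EmKCs.

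Cd209f was scarce and varied most. It had 0 to 22.8 normalised reads (median 2.56) in MCD_MoKCs, 22.5 to 169.7 (median 70.1) in MCD_EmKCs and 143 to 432 (median 252) in Chow_EmKCs. Libraries 1 and 5 of MCD_MoKCs had no read, and all 7 together held 66 reads, against 519 in the 6 MCD_EmKCs libraries and 1755 in the 6 Chow_EmKCs libraries. In MCD_MoKCs it was lower than in MCD_EmKCs by a fitted log2 fold change of -3.92 ± 0.73 (adjusted p = 5.10e-04), although the ranges touched, and lower than in Chow_EmKCs by -5.82 ± 0.73 (adjusted p = 1.30e-06). With such low values the fitted sizes depend on the pseudocount of 1. The diet value in MCD_EmKCs was -1.90 ± 0.76 with a 95% interval of -3.46 to -0.34 and did not pass (adjusted p = 0.188). It passed with a pseudocount of 10 (adjusted p = 0.0239) and in a fit of MCD_EmKCs and Chow_EmKCs alone (adjusted p = 0.0229). Of its neighbours in the cluster, Cd209b averaged 8.37 in MCD_MoKCs, 72.3 in MCD_EmKCs and 68.4 in Chow_EmKCs and fell in MCD_MoKCs against MCD_EmKCs (-3.51, adjusted p = 0.0152). Cd209g averaged 0.164 in MCD_MoKCs, 11.6 in MCD_EmKCs and 55.4 in Chow_EmKCs and did not pass against MCD_EmKCs (adjusted p = 0.102). Reads of such close copies can be assigned to the wrong one, and how the authors treated them is not given in the sources used here.

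Clec1b had the smallest fitted fold changes of the 7 genes in all 3 comparisons. It had 3529 to 6533 normalised reads (median 4738) in MCD_MoKCs, 6037 to 8007 (median 7097) in MCD_EmKCs and 5903 to 7870 (median 6360) in Chow_EmKCs, and all 3 groups overlapped. The diet difference in MCD_EmKCs was 0.08 ± 0.14 with a 95% interval of -0.21 to 0.38 (adjusted p = 0.833), and it was -0.01 when libraries were scaled by total reads. In MCD_MoKCs Clec1b stood at 73.4% of the MCD_EmKCs mean (-0.47 ± 0.14, adjusted p = 0.0282). That call was lost when reads were scaled by total reads (adjusted p = 0.0555) and when any 1 of 6 libraries was left out (MCD_MoKCs 4, 5 or 7, or MCD_EmKCs 1, 2 or 3; adjusted p between 0.0518 and 0.0644). Within the library sets it was -0.48 (adjusted p = 0.123) and -0.63 (adjusted p = 0.0799). MCD_EmKCs libraries were split by library number, at 7411 to 8007 in numbers up to 33 and 6037 to 6782 in those from 37. The MCD_MoKCs libraries were split as well, with 5799 to 6533 in libraries 1 to 3 and 3529 to 4738 in libraries 4 to 7. Without MCD_MoKCs libraries 1 to 3 the difference from MCD_EmKCs was -0.68 (adjusted p = 0.00262). Against Chow_EmKCs the difference was -0.38 ± 0.14 and missed the threshold (adjusted p = 0.0585), but it passed with the library number set as a term in the fit (-0.44, adjusted p = 0.0107), with scaling by total reads (-0.43, adjusted p = 0.0362) and without MCD_MoKCs library 1 (adjusted p = 0.0363), library 3 (adjusted p = 0.0268) or libraries 1 to 3 together (-0.60, adjusted p = 0.00450). Since cells of all groups were taken as CLEC2+, these transcript levels describe selected cells.

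Platelets also carry CLEC2, so 8 platelet genes were read beside it. Gp6, a platelet collagen receptor, had no read in MCD_MoKCs and averaged 1.30 in MCD_EmKCs and 0.596 in Chow_EmKCs, and Tubb1, a platelet tubulin, averaged 1.36 in MCD_MoKCs and had no read in the other groups. Of 3 platelet genes tested, Pf4, a chemokine that macrophages also make, rose in MCD_MoKCs against MCD_EmKCs (1.53, adjusted p = 7.12e-04), and the list summed to 1603 to 4619 normalised reads in MCD_MoKCs, 913 to 1495 in MCD_EmKCs and 203 to 766 in Chow_EmKCs. On the diet, Pf4 (1.46, adjusted p = 0.00409) and Treml1, a receptor of platelet granules (3.98, adjusted p = 0.0415), rose in MCD_EmKCs, 2 of 3 tested by limma and DESeq2 and 1 by edgeR. Treml1 averaged 129 in MCD_MoKCs, 125 in MCD_EmKCs and 10.3 in Chow_EmKCs. Itga2b, the other platelet gene tested, averaged 28.9 in MCD_MoKCs, 20.9 in MCD_EmKCs and 24.7 in Chow_EmKCs. The part of platelet RNA in the Clec1b values was not tested. Clec9a, whose annotation overlaps Clec1b, had 251 to 569 normalised reads in MCD_MoKCs, 156 to 799 in MCD_EmKCs and 143 to 553 in Chow_EmKCs and passed in no comparison. Of 10 tested genes that relay CLEC2 signals, Vav3, an exchange factor, rose in MCD_EmKCs on the diet (1.35, adjusted p = 0.00473), and no other passed there. In MCD_MoKCs against MCD_EmKCs, Vav3 rose again (1.01, adjusted p = 0.0166), and Vav1 (-0.63, adjusted p = 0.0119) and the kinase Fyn (-0.54, adjusted p = 0.0448) fell. Syk, the kinase directly downstream, had 0.25 (adjusted p = 0.339). The median over the 10 genes was -0.43 there and 0.01 on the diet.

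Mrc1 had 3651 to 5683 normalised reads (median 4787) in MCD_MoKCs, 6033 to 10788 (median 8761) in MCD_EmKCs and 6465 to 12214 (median 10711) in Chow_EmKCs. All MCD_MoKCs libraries lay below all others, while MCD_EmKCs and Chow_EmKCs overlapped widely. MCD_MoKCs stood at 55.6% of the MCD_EmKCs mean (-0.82 ± 0.16, adjusted p = 8.80e-04) and 47.5% of the Chow_EmKCs mean (-1.05 ± 0.16, adjusted p = 2.70e-05). The call against MCD_EmKCs was lost within library numbers up to 33 (-0.69, adjusted p = 0.0806) and held within those from 37 (-0.94, adjusted p = 0.0200). The diet difference was -0.22 ± 0.17 with a 95% interval of -0.57 to 0.12 (adjusted p = 0.565). Mrc1 is also abundant in sinusoidal endothelial cells. Of 10 tested markers of those cells, 4 rose (Clec4g, Oit3, Dnase1l3 and Bmp2) and 2 fell (Stab2 and Pecam1) in MCD_MoKCs against MCD_EmKCs. On the diet, 2 of the 10 rose in MCD_EmKCs (Lyve1 and Bmp2) and none fell. The list summed to 4022 to 16851 normalised reads in MCD_MoKCs, 8226 to 11062 in MCD_EmKCs and 8021 to 9751 in Chow_EmKCs, none of the 10 was at 0 in any library, and the list's part in the Mrc1 values was not tested.

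Fcna was second in abundance. It had 4917 to 11487 normalised reads (median 7550) in MCD_MoKCs, 39861 to 57913 (median 46501) in MCD_EmKCs and 39425 to 72814 (median 68239) in Chow_EmKCs. MCD_MoKCs lay far below both groups of embryo-derived cells, at 16.9% of the MCD_EmKCs mean (-2.61 ± 0.17, adjusted p = 4.17e-11) and 12.6% of the Chow_EmKCs mean (-3.02 ± 0.17, adjusted p = 6.22e-13). Libraries 1 to 3 of MCD_MoKCs had 9116 to 11487 and libraries 4 to 7 had 4917 to 7550, and without libraries 1 to 3 the difference from MCD_EmKCs was -2.92 (adjusted p = 5.71e-11). The diet value was -0.41 ± 0.18 with a 95% interval of -0.77 to -0.04 and did not pass (adjusted p = 0.244). Chow_EmKCs library 4, at 39425, lay below all MCD_EmKCs libraries and the other Chow_EmKCs libraries lay above all of them. Without any 1 library the diet value ranged from -0.54 to -0.36 with adjusted p from 0.0756 to 0.397. The antisense gene Fcnaos had 1.02 to 1.11 times the reads of Fcna in every library. Whether counting used strand is not given in the sources used here, so reads of Fcna and Fcnaos cannot be told apart.

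Ficolin A acts with the lectin pathway of complement, of which 10 other genes were tested. On the diet none rose and 2 fell in MCD_EmKCs: C4b, which is cleaved by the MASP proteases (-0.76, adjusted p = 0.0261), and Mbl2, a mannose-binding lectin of hepatocytes (-4.03, adjusted p = 0.0256), which averaged 0.503 normalised reads in MCD_EmKCs and 23.7 in Chow_EmKCs. Of 6 hepatocyte markers, 5 fell in the same comparison, and their sum was 459 to 2227 in MCD_EmKCs and 2880 to 9628 in Chow_EmKCs; their part in the Mbl2 difference was not tested. In MCD_MoKCs against MCD_EmKCs, C4b fell to 905 to 2453 normalised reads in MCD_MoKCs against 10452 to 19110 in MCD_EmKCs (-2.98 ± 0.19, adjusted p = 2.88e-11), and C2, its partner in the C3 convertase, fell as well (-0.88 ± 0.11, adjusted p = 3.19e-06). The list's median was -0.41 in that comparison and -0.67 on the diet, where edgeR called 1 of the 10 and DESeq2 2. The other ficolin gene, Fcnb, had no read in any library, and Masp1 and Masp2 averaged 112 and 50.8 normalised reads in MCD_MoKCs and 87.2 and 74.3 in MCD_EmKCs and did not pass.

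Folr2 had 1129 to 3351 normalised reads (median 1747) in MCD_MoKCs, 6302 to 9069 (median 7266) in MCD_EmKCs and 8994 to 19630 (median 15207) in Chow_EmKCs. MCD_MoKCs were below all other libraries, at 29.0% of the MCD_EmKCs mean (-1.88 ± 0.22, adjusted p = 1.42e-06). In MCD_EmKCs Folr2 stood at 49.8% of the chow mean (-0.96 ± 0.23, adjusted p = 0.0159), with 1 MCD_EmKCs library just above the lowest Chow_EmKCs library. The chow libraries were themselves split by library number, at 18106 to 19630 in numbers up to 33 and 8994 to 12309 in those from 37. MCD_EmKCs were split in the same direction, at 7509 to 9069 in numbers up to 33 and 6302 to 7023 in those from 37. MCD_MoKCs were split as well, with 2335 to 3351 in libraries 1 to 3 and 1129 to 1747 in libraries 4 to 7, and without libraries 1 to 3 the difference from MCD_EmKCs was -2.31 (adjusted p = 5.54e-08). Within the first set of library numbers the diet difference was -1.21 (adjusted p = 0.0342) and within the second -0.70 (adjusted p = 0.0791), each with 3 libraries a group. Of 9 other genes of folate uptake and use, none passed on the diet or between MCD_MoKCs and MCD_EmKCs in limma, edgeR or DESeq2, with 0 and 3 at an unadjusted limma p under 0.05. Against Chow_EmKCs, Slc46a1, the proton-coupled folate transporter, was lower in MCD_MoKCs (-1.87, adjusted p = 0.00258). The list's median was -0.15 on the diet and -0.08 between MCD_MoKCs and MCD_EmKCs.

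**Figure D3:**
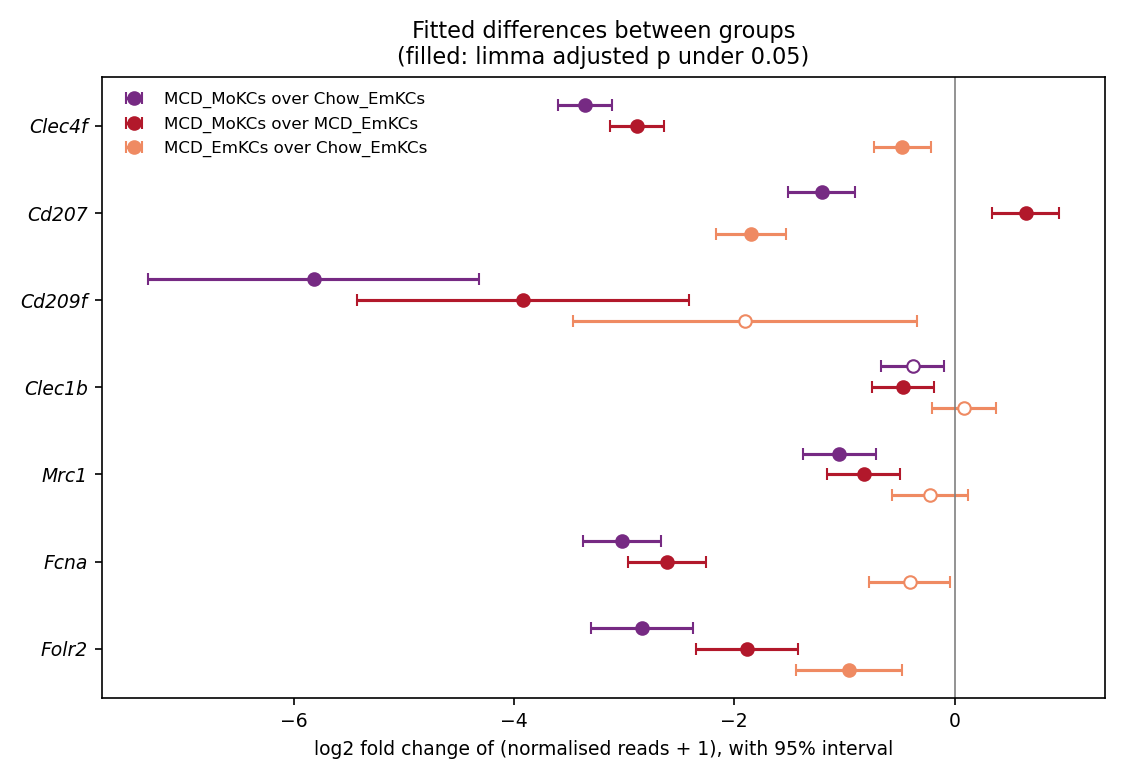
Log2 fold change of (normalised reads + 1) with its 95% interval for each of the 7 genes in 3 comparisons, with filled points for limma adjusted p under 0.05. Intervals lay wholly below 0 for Clec4f, Cd209f, Fcna and Folr2 in all comparisons, and only Cd207 between MCD_MoKCs and MCD_EmKCs had an interval wholly above 0.

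Levels between genes were compared per kb of exon. In Chow_EmKCs the order was Clec4f (88925 ± 9133 normalised reads per kb, SD, n = 6), Fcna (45699 ± 8932), Folr2 (9582 ± 2879), Cd207 (5979 ± 680), Mrc1 (1575 ± 374), Clec1b (1294 ± 158) and Cd209f (133 ± 56.8). Ranges of Folr2 and Cd207 overlapped, as did those of Mrc1 and Clec1b. In MCD_EmKCs Clec4f (63809 ± 1930), Fcna (34013 ± 4535) and Folr2 (4772 ± 642) kept the top places, and Cd207 (1664 ± 243), Clec1b (1372 ± 153) and Mrc1 (1345 ± 301) overlapped as neighbours. In MCD_MoKCs (n = 7) Clec4f (8838 ± 1880) and Fcna (5763 ± 1752) were again first but overlapped, Cd207 (2632 ± 592) had moved above Folr2 (1382 ± 573) on average, and Cd209f (3.67 ± 4.77) was last. There the ranges of Cd207 and Folr2 overlapped, at 1902 to 3595 and 730 to 2168 per kb. Among 13996 genes with an annotated exon length, Clec4f had a median rank of 85 in MCD_MoKCs, 10 in MCD_EmKCs and 6.5 in Chow_EmKCs. The merged exons of Clec1b span 5.103 kb, against 1.09 kb for its principal transcript. With the principal transcript as length, an alternative chosen after seeing the data, Clec1b stood at 4715 per kb and rank 3 of the 7 in MCD_MoKCs, at 6422 and rank 3 in MCD_EmKCs, and at 6060 and rank 4 in Chow_EmKCs, so its place in the order depends on the gene model. The 7 genes together took 0.247 ± 0.0526% of reads in MCD_MoKCs (SD, n = 7), 1.21 ± 0.142% in MCD_EmKCs (n = 6) and 1.80 ± 0.152% in Chow_EmKCs (n = 6).

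Ratios to Clec1b within a library set each gene against the gene behind the shared gate. Fcna had 1.21 to 1.76 times the reads of Clec1b in MCD_MoKCs, 6.10 to 7.86 times in MCD_EmKCs and 6.64 to 11.6 times in Chow_EmKCs. Folr2 had 0.316 to 0.567 times in MCD_MoKCs, 0.997 to 1.13 times in MCD_EmKCs and 1.52 to 3.06 times in Chow_EmKCs, and no 2 groups overlapped. The log2 ratio of Folr2 was 1.42 lower in MCD_MoKCs than in MCD_EmKCs (-1.42, exact two-sided permutation p = 5.83e-04, adjusted p = 0.00122) and 1.04 lower in MCD_EmKCs than in Chow_EmKCs (-1.04, exact p = 0.00216, adjusted p = 0.00303), each the smallest p its design allows. Cd207 to Clec1b was 0.660 to 0.923 in MCD_MoKCs, 0.252 to 0.452 in MCD_EmKCs and 1.23 to 1.72 in Chow_EmKCs, so on this scale MCD_MoKCs and MCD_EmKCs did not overlap (difference 1.11, exact permutation p = 5.83e-04, adjusted p = 0.00122). Clec1b itself averaged 5140 normalised reads in MCD_MoKCs and 7000 in MCD_EmKCs, so this difference is wider than that of Cd207 alone. Fcna to Clec1b on the diet was lower by 0.49 in MCD_EmKCs (-0.49, exact permutation p = 0.00649, adjusted p = 0.00758), with overlap. Fcna alone did not pass there (-0.41, limma adjusted p = 0.244). Cd209f alone did not pass either (limma adjusted p = 0.188), while its ratio did (-1.99, exact permutation adjusted p = 0.00758). Ratios were adjusted over 21 tests and single genes over all genes tested, and these ratios also take in the change of Clec1b. Most ratios share Clec1b as denominator and the comparisons share libraries, so the tests are not independent. Of 21 ratio tests, 19 passed. Those that did not were Mrc1 to Clec1b in MCD_EmKCs against Chow_EmKCs (-0.31, exact permutation p = 0.219, adjusted p = 0.219) and in MCD_MoKCs against MCD_EmKCs (-0.36, exact permutation p = 0.131, adjusted p = 0.138), so a change of Mrc1 beyond that of Clec1b was not detected there.

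**Figure D4:**
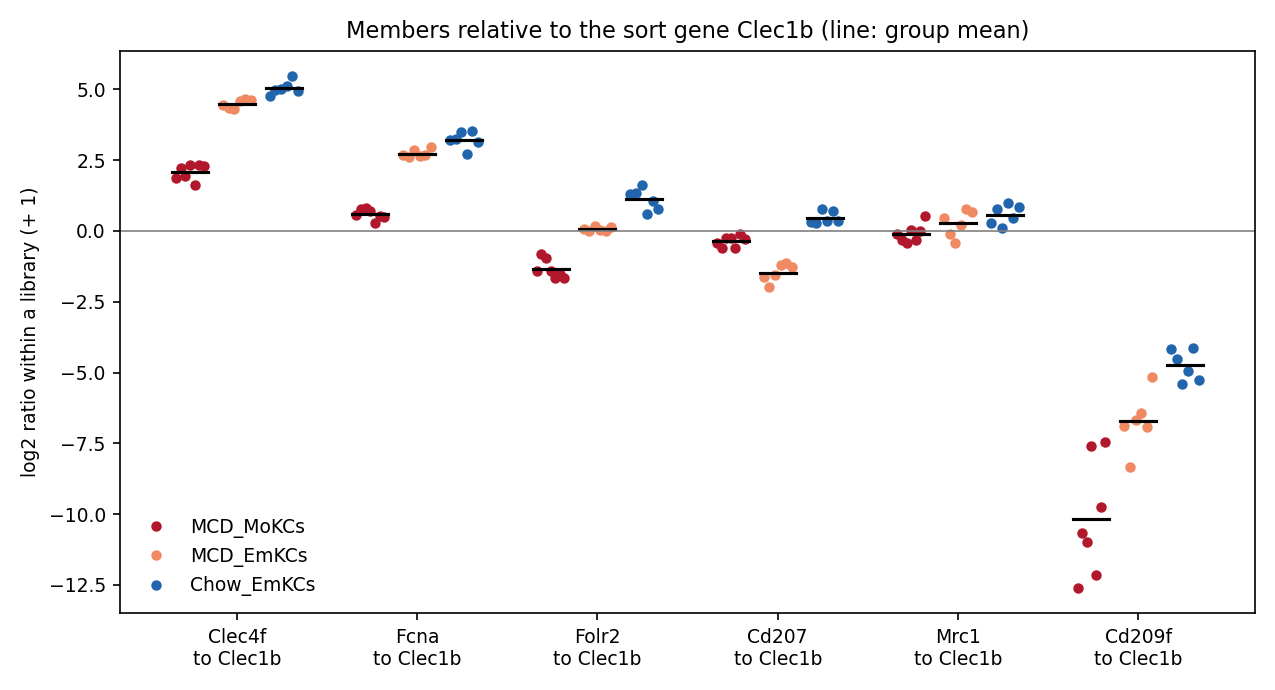
Log2 ratio of 6 genes to Clec1b within a library (1 added to each value), with points for the libraries of MCD_MoKCs (7), MCD_EmKCs (6) and Chow_EmKCs (6) and a line at each group mean. Clec4f, Folr2 and Cd207 had no overlap between groups, Cd207 was lowest in MCD_EmKCs, and Mrc1 overlapped in all 3 groups.

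Genes outside the 7 with the most similar pattern were taken as the 3 highest Pearson correlations of log2 values over the 19 libraries, with predicted genes left out. The libraries share groups and scaling, so r is a description. Of these genes, Clec4f was most like C6, a complement component (r = 0.99), Fcnaos (r = 0.99) and Timd4 (r = 0.98). Timd4 is set by the gate, and reads of Fcnaos cannot be told apart from those of Fcna, so neither gene adds a separate likeness. Fcna was most like Fcnaos (r = 1.00), Vsig4 (r = 0.99) and Ctla2b (r = 0.98), and Folr2 was most like Apoc1 (r = 0.97), Fcnaos (r = 0.97) and Sectm1a (r = 0.96). Vsig4 encodes a complement receptor of resident macrophages, and Apoc1 an apolipoprotein. Cd207 was most like other genes, H2-T23, a non-classical class I gene (r = 0.91), Itgb7, an integrin chain (r = 0.90), and Tmem176a (r = 0.88). H2-T23 had 6516 ± 1475 normalised reads in MCD_MoKCs (SD, n = 7), 5583 ± 480 in MCD_EmKCs and 11334 ± 2468 in Chow_EmKCs (n = 6 each). Clec1b was most like Ccl24, Cd5l and Mark4 (r = 0.85 each), Mrc1 like Ddx60 and Slc9a9 (r = 0.91 each), and Cd209f like Hpgd (r = 0.94), Sult1a1 (r = 0.92) and Csf1r (r = 0.91). Among the 7 genes themselves, Clec4f and Fcna had r = 0.99, Fcna and Folr2 r = 0.97 and Clec4f and Folr2 r = 0.94, whereas Cd207 had at most r = 0.50 with any of the other 6.

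Of 26 other C-type lectin genes of myeloid and liver cells that were tested, 12 rose and 2 fell in MCD_MoKCs against MCD_EmKCs, with a median log2 fold change of 0.74. Clec4e, which encodes the glycolipid receptor Mincle, had 2266 to 5552 normalised reads in MCD_MoKCs and 104 to 284 in MCD_EmKCs (4.11 ± 0.42, adjusted p = 1.05e-07). Clec7a, the beta-glucan receptor dectin-1, averaged 14260.0 ± 2549 in MCD_MoKCs and 6636 ± 502 in MCD_EmKCs (1.09, adjusted p = 2.49e-06). Olr1, a scavenger receptor for oxidised lipoprotein, had 246 to 683 in MCD_MoKCs and 0 to 38.96 in MCD_EmKCs (6.31 ± 0.92, adjusted p = 2.20e-05). Clec4g, which also rose, is on the list of endothelial markers given above. The genes that fell were Cd209b, given above, and Colec12, a scavenger receptor, which averaged 1071 in MCD_MoKCs and 5394 in MCD_EmKCs (-2.40, adjusted p = 6.65e-09). On the diet, 3 of the 26 rose in MCD_EmKCs (Clec4e at 2.46 ± 0.44, Colec12 at 1.84 ± 0.22 and Clec7a at 0.70 ± 0.14) and none fell, with a median of 0.12. In that comparison 3 of the 7 Kupffer cell genes fell, and of all 14875 genes tested 372 were higher and 235 lower. Monocyte markers moved beside the lectin counts of both comparisons. Of 5 tested, 4 rose and none fell in MCD_MoKCs against MCD_EmKCs by limma, and edgeR and DESeq2 called 2 each. On the diet, Ccr2, a chemokine receptor of monocytes, rose in MCD_EmKCs (3.48, adjusted p = 0.0488), and it was 1 of 5 called by each of the 3 tools, with 3 of 5 at an unadjusted limma p under 0.05. The list summed to 947 to 1974 in MCD_MoKCs, 199.6 to 523 in MCD_EmKCs and 72.4 to 293 in Chow_EmKCs, and its part in the lectin values was not tested.

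**Figure D5:**
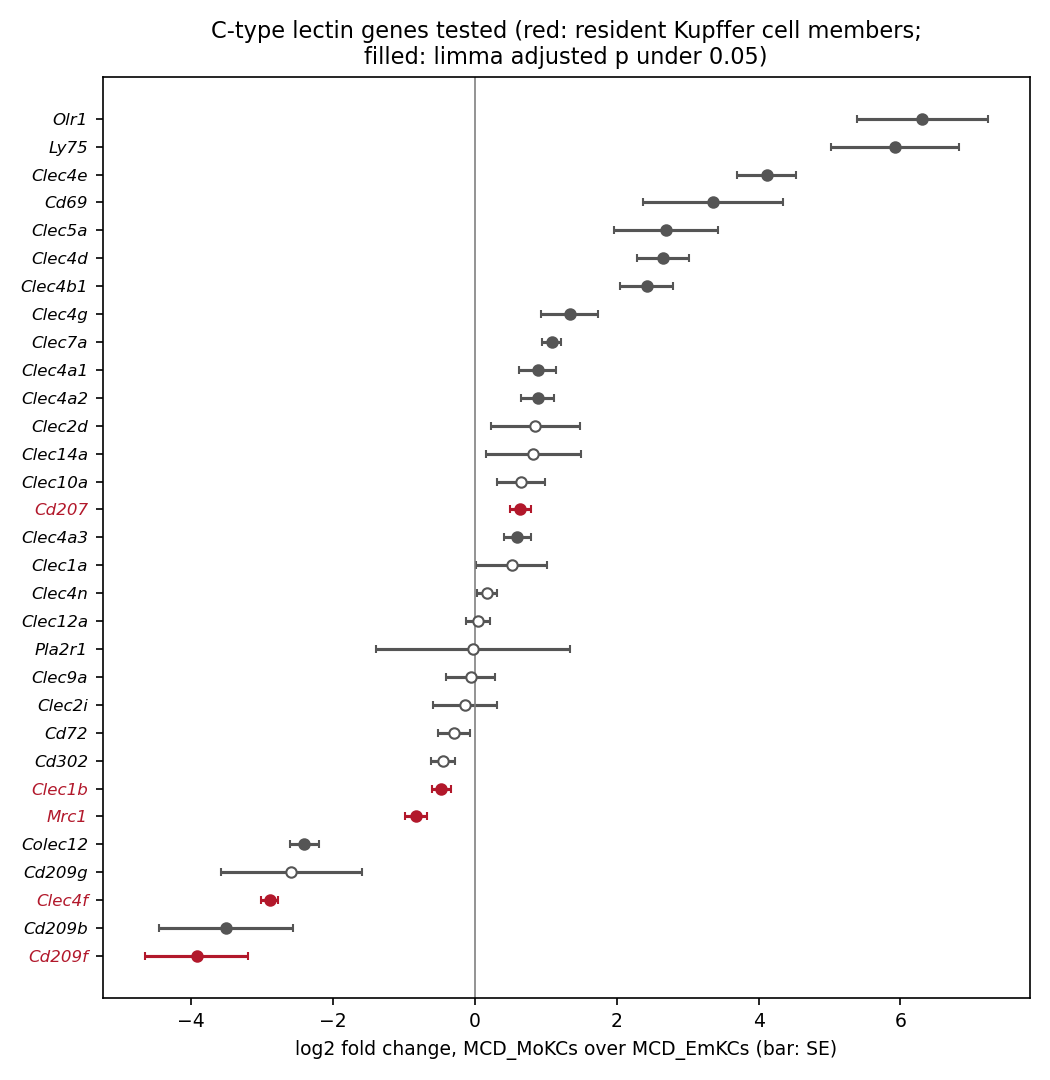
Log2 fold change of MCD_MoKCs over MCD_EmKCs, with SE, for 26 C-type lectin genes in grey and the 5 C-type lectin genes described above in red, with filled points for limma adjusted p under 0.05. The genes with the highest values were Olr1, Ly75 and Clec4e, and Clec4f, Cd209b and Cd209f were at the low end.

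The lower values in MCD_MoKCs were shared by other resident Kupffer cell genes. Of 17 such genes beside the 7, 14 fell and none rose against MCD_EmKCs, with a median of -2.19. Timd4 is among them and is set by the gate, and the list was drawn up with earlier results of these samples known. C6 averaged 703 ± 208 in MCD_MoKCs (SD, n = 7) and 12692 ± 1321 in MCD_EmKCs (n = 6). Id1, Id3 and Nr1h3 did not pass, with values of -0.29, 0.14 and -0.30. On the diet, by contrast, 1 of the 17 rose and 1 fell in MCD_EmKCs, where 4.08% of all genes tested were called in either direction. Marco, a scavenger receptor, rose to 22315 ± 3624 in MCD_EmKCs, against 5275 ± 1300 in Chow_EmKCs (2.10 ± 0.18, adjusted p = 7.20e-09). Nr1h3, which encodes LXR alpha, fell to 8361 ± 572 in MCD_EmKCs, against 13671 ± 1642 in Chow_EmKCs (-0.70 ± 0.11, adjusted p = 2.63e-04).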

How the data were processed

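The authors deposited 1 table of normalised read signal for 33919 gene identifiers in 19 libraries. The deposited signal values were whole multiples of 1 step per library within 0.001 reads (100% of values), that is, reads divided by a size factor. STAR, DESeq2 and the mm10 build are named, per the submitters' processing notes; no source used here gives versions, the counting tool or the strand setting. Positions and exon lengths are from GENCODE M21 and promoter sequences from RefSeq.

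limma (3.58.1; R 4.3.3; trend, robust) was fitted to log2(value + 1) with 1 mean per group over all 19 libraries, for genes with at least 10 in at least 6 libraries; p-values are two-sided with Benjamini-Hochberg adjustment over 14875 genes. Ratios were tested by exact two-sided permutation, adjusted over 21 tests. edgeR (4.0.16) and DESeq2 (1.42.0) were run on the recovered reads. Scripts were tested on simulated data. The 7 genes, the lists of other genes and the alternatives were chosen with earlier results of these data known. From each list the rule for named genes allows up to 4 called genes with the largest fold change per comparison and a mean of at least 100 in the higher group, and for each of the 7 genes the 3 most correlated (1 of those for Mrc1 is not reported here); other named genes were chosen after their values were seen. Total reads were 11642240 to 30983487 per library; without molecular identifiers, precision was taken from the spread between libraries.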

Additional observations from a re-analysis of the deposited data

How the results depend on the processing

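Among the fold changes of the 7 genes, only Clec1b in MCD_EmKCs over Chow_EmKCs changed sign under the alternatives run, to -0.0059 with scaling by total reads; no ratio changed sign. That scaling moved the median of all genes in that comparison to -0.13 and the split of calls to 248 higher and 282 lower in MCD_EmKCs, against 372 and 235 as deposited. Within library numbers up to 33, genes called were 870 in MCD_MoKCs over MCD_EmKCs, 1257 in MCD_MoKCs over Chow_EmKCs and 179 in MCD_EmKCs over Chow_EmKCs; within those from 37 they were 565, 1288 and 263, and 1 of the 7 genes, Cd207, was called on the diet. These fits have fewer libraries. From 37, and for the diet comparison up to 33, the exact ratio tests have 2 or 3 libraries a group and a smallest p of 0.1, so they could not pass and say nothing on stability. Of the other ratio tests up to 33, Cd209f to Clec1b in MCD_MoKCs over MCD_EmKCs lost its call (-3.51, exact permutation adjusted p = 0.111). Without MCD_MoKCs libraries 1 to 3, 1010 genes were called in MCD_MoKCs over MCD_EmKCs; the cause was not tested. Leaving out 1 library at a time gave 1288 to 1596, 2193 to 2456 and 468 to 602 genes called in MCD_MoKCs over MCD_EmKCs, MCD_MoKCs over Chow_EmKCs and MCD_EmKCs over Chow_EmKCs, and 6 to 7, 6 to 7 and 2 to 3 of the 7 genes. A fit with a replicate block gave 1658, 2474 and 608 genes and changed no call of the 7; of 18 pairs of libraries with the same number none had a correlation of deviations over 0.1, and 5 of 19 libraries correlated best with their own number, so the numbers are only shared. edgeR called 1325, 2086 and 554 genes and DESeq2 1846, 2588 and 904, and both called the same number of the 7 genes in each comparison as limma. With the principal transcript as length, chosen after seeing the data, Clec1b had 4715, 6422 and 6060 per kb in MCD_MoKCs, MCD_EmKCs and Chow_EmKCs, Mrc1 887 in MCD_MoKCs, Folr2 6128 in MCD_EmKCs, and Cd209f 64.8 in MCD_EmKCs and 223 in Chow_EmKCs. The ratio of Cd207 to Clec1b in MCD_MoKCs over Chow_EmKCs lost its call as a difference of medians (-0.63, exact permutation adjusted p = 0.0612), and that of Mrc1 to Clec1b in MCD_MoKCs over MCD_EmKCs passed without MCD_EmKCs library 3 (-0.49, exact permutation adjusted p = 0.0398). Depth limits Cd209f, with 66 reads in all of MCD_MoKCs.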
